A study of Mus musculus with 6 samples.

Results

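Oas1a, Oas1b and Oas1g are 3 members of the Oas1 family of antiviral sensors, and their liver mRNA was compared between Mul1(+/+) and Mul1(-/-) animals on a high-fat diet (HFD). They are 3 of the 3542 genes in the deposited table of differentially expressed genes, and they were found there by their symbols. The family was chosen by the same comparison of Mul1(-/-) with Mul1(+/+) liver, with its values in view. Its differences between genotypes are therefore given as a description, with no test.

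Liver mRNA was sequenced from 3 Mul1(+/+) mice (wild type) and from 3 Mul1(-/-) mice, which lack Mul1 in the whole body and came from crosses of heterozygous animals. Mul1 encodes a ubiquitin ligase of the outer mitochondrial membrane. Both groups were kept on HFD for 16 weeks, starting at an age of 8 weeks, and no library from another diet was analysed here. The labels give no sex and no strain for a library, and they do not state that replicate numbers pair the mice. The paper used male and female mice, so a difference of sex or litter between the groups cannot be told apart from genotype. The p-values below set the difference between genotypes against the spread between these libraries only.

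The oligoadenylate synthetases are a family of enzymes that bind double-stranded RNA, as formed during viral replication, and then join ATP into short oligoadenylates. Type I and type III interferons induce the genes, and the mouse carries an expanded set of Oas1 genes where humans have a single one. Oas1a and Oas1g encode synthetases, whereas Oas1b is best known as the flavivirus resistance gene, which in many laboratory strains is cut short by a premature stop codon.

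The 3 genes lie in 1 cluster. In GENCODE M21 on GRCm38, the 10 Oas genes fill 191 kb at chr5:120730333-120921652. Oas1a (chr5:120896256-120907521, minus strand) and Oas1g (chr5:120876142-120887613, minus strand) are neighbours, with 8.64 kb between them. Oas1b (chr5:120812635-120824163, plus strand) lies 52.0 kb from Oas1g, and its annotated type is polymorphic pseudogene. The genome build used to make the table is not given in the sources used here.

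**Figure D1:**
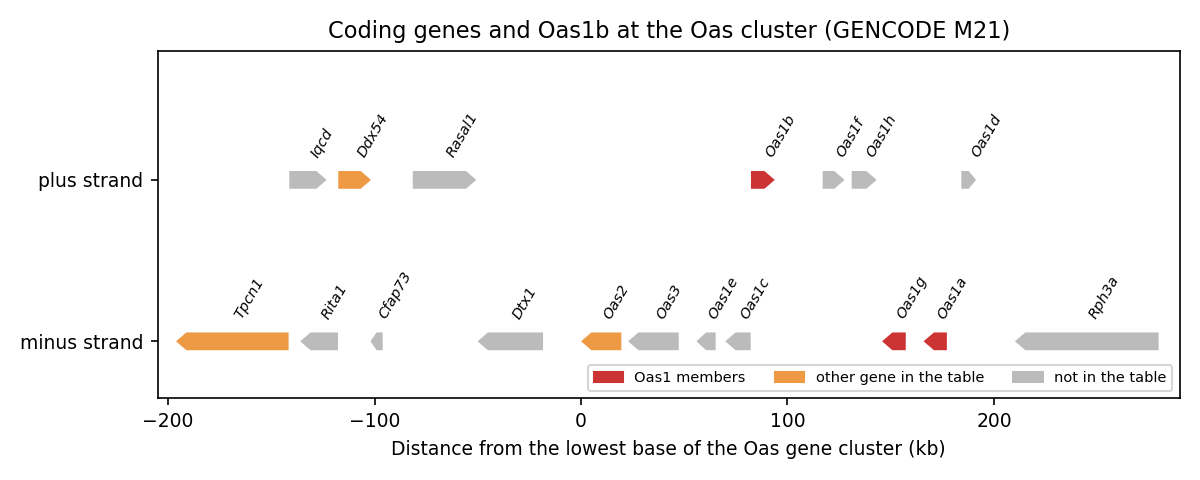
Map of the Oas cluster: the x axis is the distance in kb from the lowest base of the cluster, and each arrow is a gene drawn to scale on its strand. Red arrows are Oas1a, Oas1b and Oas1g, orange arrows are the other genes present in the table, and grey arrows are genes absent from it; 4 of the 10 Oas genes are in the table.

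The stretch around the stop codon of Oas1b is shown because the reference transcript of Oas1b ends its reading frame there, while those of Oas1a and Oas1g read on. Capitals mark codon 253 of the Oas1b transcript and the aligned codon 258 of the other 2, and each line is 51 bases of an exon read 5′ to 3′ on the strand of the gene, from the GRCm38 transcripts of GENCODE M21 at chr5:120821284-120821334 (plus strand, Oas1b), chr5:120899165-120899215 (minus strand, Oas1a) and chr5:120879192-120879242 (minus strand, Oas1g).
Oas1b: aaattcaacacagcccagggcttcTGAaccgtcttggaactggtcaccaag
Oas1a: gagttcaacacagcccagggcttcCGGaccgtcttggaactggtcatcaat
Oas1g: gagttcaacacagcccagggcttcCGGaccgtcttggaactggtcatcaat
Oas1a and Oas1g were identical over this stretch, and 45 of the 51 bases were shared with Oas1b. Counted from 1 at the A of the Oas1a start codon, the changes in the codon from Oas1a to Oas1b were C772T and G774A. The reference Oas1b transcript read 252 codons to its first stop, against 367 codons in Oas1a and in Oas1g. Whether the mice sequenced here carried this stop codon cannot be read from the table.

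The promoters of Oas1a and Oas1g were compared because the 2 genes are both higher in Mul1(-/-) liver and share much of their sequence. The RefSeq promoter table (GRCm38.p6) matched 2 of the 3 genes, Oas1a and Oas1g. Each line is the 120 bases before the RefSeq transcription start, read 5′ to 3′ on the minus strand, at chr5:120907526-120907645 for Oas1a and chr5:120887614-120887733 for Oas1g. Capitals mark a pair of overlapping matches to GAAANNGAA, the repeat found in interferon-stimulated response elements, which the interferon-activated ISGF3 complex and interferon regulatory factors are known to bind.
Oas1a: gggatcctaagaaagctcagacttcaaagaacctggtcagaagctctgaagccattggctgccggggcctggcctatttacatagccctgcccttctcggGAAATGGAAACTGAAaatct
Oas1g: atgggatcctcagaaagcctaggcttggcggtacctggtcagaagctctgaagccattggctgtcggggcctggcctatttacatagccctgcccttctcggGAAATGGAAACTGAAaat
The 2 stretches were identical at 108 of 118 aligned bases (91.5%), with a longest identical run of 56 bases. The matches began 20 and 14 bases before the start of Oas1a, and 18 and 12 bases before that of Oas1g. Searched on both strands of the RefSeq promoter windows, GAAANNGAA was present in 8.56% of 32851 promoters. In both Oas1 promoters the first match was followed directly by ACT, a form found in 0.271% of all promoters, or 89 of them. These matches are a description of the sequence, and binding at these promoters was not measured.

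The transcripts of Oas1a and Oas1g were near copies of each other. Oas1a-201 (1885 bases, 7 exons) and Oas1g-201 (1977 bases, 7 exons) were identical at 97.5% of 1860 aligned bases, and their longest identical run was 526 bases. Oas1b-203 (1837 bases, 6 exons) was 77.3% identical to Oas1a and 77.8% identical to Oas1g. Of all windows of 100 bases in the Oas1a transcript, 40.1% were found unchanged in another Oas1 transcript, against 38.2% for Oas1g and 0% for Oas1b. How reads that match both copies were counted is not given in the sources used here, so the values of Oas1a and Oas1g are uncertain. Their sum does not depend on how such reads were divided between them, although it does depend on whether these reads were kept. Strand use in the counting is likewise not given.

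**Figure D2:**
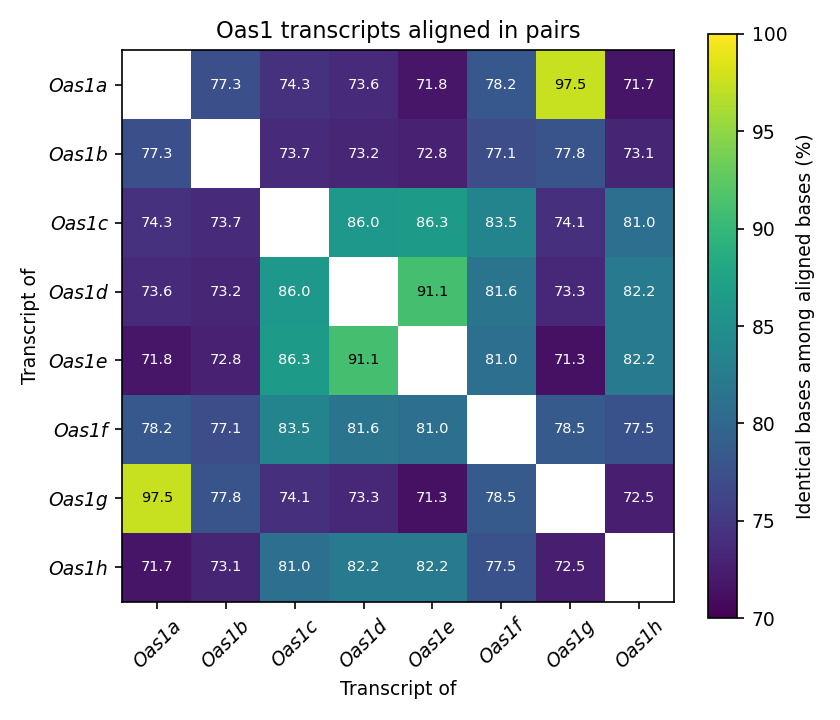
Identity in percent of the aligned bases between the reference transcripts of the 8 Oas1 genes, with each cell a pair of genes and the colour scale running from 70 to 100%. Oas1a and Oas1g stand apart at 97.5%, and Oas1b is below 78% with every other member.

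Before the values of the family, the targeted gene was checked. Mul1 had normalized read counts of 3172, 3232 and 3423 in the Mul1(+/+) libraries and of 1037, 965 and 1753 in the Mul1(-/-) libraries. The Mul1(-/-) mean was 38.2% of the Mul1(+/+) mean with no overlap of the groups, in the direction of the labels, although reads of Mul1 remained in each Mul1(-/-) library (log2 difference -1.44, SE 0.40, limma adjusted p = 0.0126, short of the 0.01 limit). Which part of Mul1 the deletion removes is not given in the sources used here. Each library held between 11932165 and 15385822 reads of genes in the table, which are a part of its depth. The table holds genes that the authors had already selected on these 6 libraries, and 3416 of the 3542 had an unadjusted limma p below 0.05. Each limma adjusted p here and below was adjusted over these selected genes only, so it carries their selection and does not limit false calls. Calls and misses are therefore a description within the table. By the threshold used here, a limma adjusted p under 0.01 with a log2 difference above 1 or below -1, 591 genes (16.7%) were higher and 263 genes (7.43%) were lower in Mul1(-/-) liver. Leaving out any 1 Mul1(+/+) library, or Mul1(-/-) replicate 2, lowered the 854 calls to between 10 and 46. Leaving out Mul1(-/-) replicate 3 raised them to 2673.

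Oas1a, Oas1b and Oas1g all had higher values in Mul1(-/-) liver, and Oas1g differed the most. The differences were 3.39-fold for Oas1a, 4.26-fold for Oas1b and 9.81-fold for Oas1g in group means. For each gene the lowest Mul1(-/-) library was above the highest Mul1(+/+) library. Groups also did not overlap, with Mul1(-/-) higher, for 49.3% of all genes in the table, and, with Mul1(-/-) lower, for 41.0%. Since the table and the family were chosen on this contrast, nothing is read from these counts. For higher values in bulk liver, more cells of a type and more RNA per cell cannot be told apart.

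Oas1a (ENSMUSG00000052776) had the highest values of the family. In the order of the replicate numbers, 144, 211 and 139.7 normalized read counts were found in Mul1(+/+) and 433, 505 and 738 in Mul1(-/-), and the same order is used below. The reads behind them numbered 171, 238 and 171 in Mul1(+/+), and 296, 412 and 840 in Mul1(-/-). Mul1(-/-) replicate 3 was the highest library, and the groups were well apart. The group means were 165 ± 39.8 for Mul1(+/+) and 558 ± 159.6 for Mul1(-/-) (SD, n = 3 each), with a difference of 1.74 (SE 0.41) on the scale of log2 of the normalized count plus 1.

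Oas1b (ENSMUSG00000029605), the gene of flavivirus resistance, was the most variable member. In Mul1(+/+) its normalized read counts were 23.6, 54.9 and 28.6 from 28, 62 and 35 reads, and in Mul1(-/-) they were 229, 160.4 and 66.8 from 157, 131 and 76 reads. Mul1(-/-) replicate 3 was only slightly above Mul1(+/+) replicate 2, and Mul1(-/-) replicate 1 was the highest library. The group means were 35.7 ± 16.8 and 152 ± 81.6 (SD, n = 3 each). The log2 difference was 1.98 (SE 0.54).

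Oas1g (ENSMUSG00000066861), the near copy of Oas1a, had few reads in Mul1(+/+) liver and even values in Mul1(-/-) liver. Its normalized read counts were 22.8, 43.4 and 30.2 in Mul1(+/+) from 27, 49 and 37 reads, and 324, 342 and 279 in Mul1(-/-) from 222, 279 and 318 reads. The 3 Mul1(-/-) libraries lay close together, far above the highest Mul1(+/+) library. The group means were 32.1 ± 10.4 and 315 ± 32.2 (SD, n = 3 each), a log2 difference of 3.30 (SE 0.40). Ranked by log2 difference in the table, Oas1g was at position 93, Oas1b at 703 and Oas1a at 921 of 3542 genes.

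**Figure D3:**
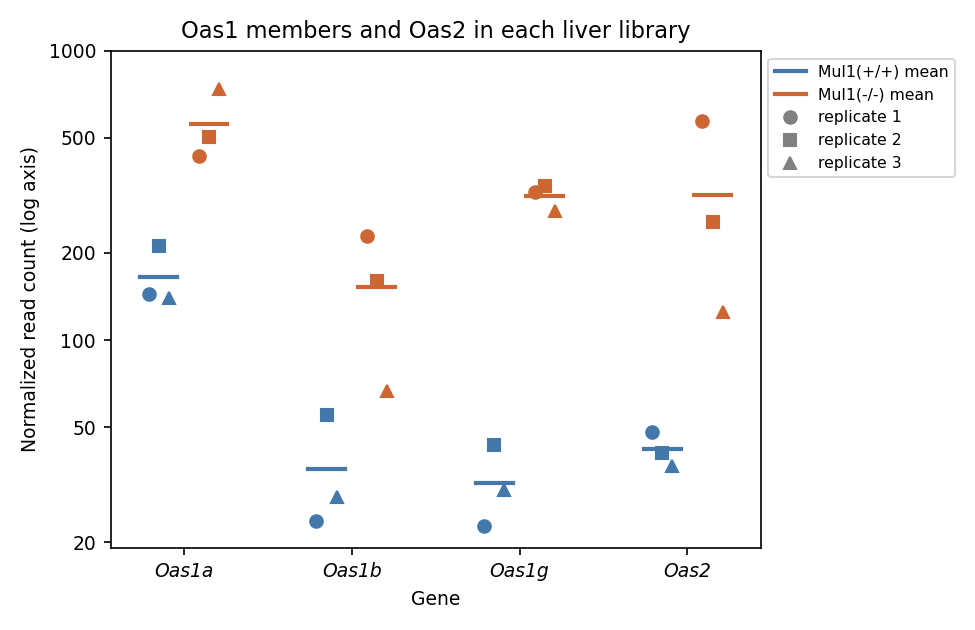
Normalized read counts on a log axis of Oas1a, Oas1b, Oas1g and the neighbouring gene Oas2 in each library, with Mul1(+/+) in blue, Mul1(-/-) in orange, a marker shape for each replicate number and a line at each group mean. Within each gene every Mul1(-/-) library is above every Mul1(+/+) library, and in Mul1(-/-) the spread is narrow for Oas1g (279 to 342) and wide for Oas2 (125 to 571).

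The summed normalized counts of the 3 genes were 190.5, 309 and 198 in Mul1(+/+) and 986, 1007 and 1084 in Mul1(-/-). The means were 233 ± 66.3 and 1026 ± 51.4 (SD, n = 3 each), a 4.41-fold difference (log2 difference 2.17). Between Mul1(-/-) libraries the coefficient of variation was 5.01% for the sum, against 28.6% for Oas1a, 53.6% for Oas1b and 10.2% for Oas1g. Between Mul1(+/+) libraries it was 28.5% for the sum, above the 24.2% of Oas1a and below the 47.1% of Oas1b and 32.5% of Oas1g. For Oas1a and Oas1g together, the near copies, the summed values were 167, 254 and 169.9 in Mul1(+/+) and 757, 846 and 1017 in Mul1(-/-), a 4.43-fold difference of means, with a coefficient of variation of 25.2% and 15.1%.

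The makeup of the family also differed between libraries. Oas1a took most of the 3 genes' reads in Mul1(+/+) liver, with 75.7%, 68.2% and 70.4%, and took 43.9%, 50.1% and 68.1% in Mul1(-/-) liver. The share of Oas1g was 11.9%, 14.0% and 15.2% in Mul1(+/+) and 32.9%, 33.9% and 25.8% in Mul1(-/-). The shares of Oas1g did not overlap between the groups. The split between Oas1a and Oas1g depends on how reads that match both copies were counted, which is not given. The share of Oas1b was 12.4%, 17.8% and 14.4% in Mul1(+/+) and overlapped with the 23.3%, 15.9% and 6.16% in Mul1(-/-). All these shares are a description, and reads without molecular identifiers are not independent molecules.

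**Figure D4:**
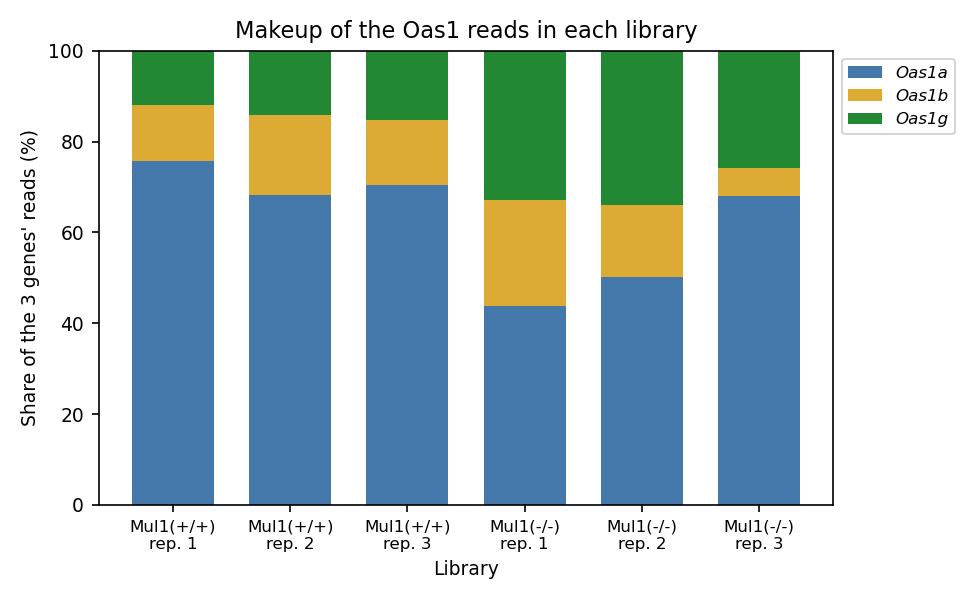
Stacked bars of the share in percent of the reads of Oas1a, Oas1b and Oas1g in each of the 6 libraries. Oas1g takes 11.9 to 15.2% in the Mul1(+/+) bars and 25.8 to 33.9% in the Mul1(-/-) bars, and Mul1(-/-) replicate 3 has the Oas1a share closest to Mul1(+/+).

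Mul1(-/-) replicate 3 differed from the other Mul1(-/-) libraries in the balance between members. The ratio of Oas1a to Oas1b in normalized counts was 1.89 and 3.15 in Mul1(-/-) replicates 1 and 2 and 11.1 in replicate 3, against 3.84 to 6.11 in Mul1(+/+). In the same 3 libraries, Oas1a to Oas1g was 1.33, 1.48 and 2.64, below the 4.62 to 6.33 of Mul1(+/+). With each library left out in turn, the log2 difference ranged from 1.52 to 1.93 for Oas1a, from 1.60 to 2.49 for Oas1b and from 3.08 to 3.53 for Oas1g.

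Levels were compared between genes after division by transcript length, as normalized counts per kb. In Mul1(+/+) liver the order was Oas1a at 87.5 ± 21.1, Oas1b at 19.4 ± 9.16, Oas1g at 16.2 ± 5.28 and Oas2 at 10.6 ± 1.45 (SD, n = 3 each). Oas1a was apart from the rest, whereas Oas1b (12.8 to 29.9) and Oas1g (11.5 to 21.9) overlapped, and Oas1g overlapped with Oas2 (9.28 to 12.1). In Mul1(-/-) liver the order was Oas1a at 296 ± 84.6, Oas1g at 159 ± 16.3, Oas1b at 82.8 ± 44.4 and Oas2 at 80.1 ± 57.9. Oas1a (229 to 391), Oas1g (141 to 173) and Oas1b (36.3 to 125) did not overlap there, and Oas1b and Oas2 (31.5 to 144) did. Oas1g was thus below Oas1b in mean length-corrected level in Mul1(+/+) and above it in Mul1(-/-), and the Mul1(+/+) values of the pair overlapped. The full transcript length was used, although reads shared by Oas1a and Oas1g may have been dropped or divided. The place of Oas1g in either order is therefore uncertain.

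Of 12 other genes in the list of the OAS system, only Oas2 was in the table, and it was called higher. Oas2 encodes a larger synthetase of the same family and lies 62.8 kb from Oas1b at the end of the cluster. Its normalized read counts were 48.0, 40.7 and 36.8 in Mul1(+/+) and 571, 256 and 125 in Mul1(-/-). The groups did not overlap, and the Mul1(-/-) libraries differed 4.58-fold from lowest to highest. Oas2 rose 7.58-fold in group means, with a log2 difference of 2.63 (SE 0.54, limma adjusted p = 0.00701). Without Mul1(+/+) replicate 1, 2 or 3 or Mul1(-/-) replicate 2 the limma adjusted p was 0.0234, 0.0243, 0.0247 or 0.0308, above the 0.01 limit.

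Within the Mul1(-/-) group, Oas2 and Oas1b shared an order: both were highest in replicate 1 and lowest in replicate 3, whereas Oas1a had the opposite order. The ratio of Oas2 to Oas1b was 2.49, 1.60 and 1.87 in Mul1(-/-) and from 0.742 to 2.04 in Mul1(+/+). Oas3, the Oas-like genes and the other 5 Oas1 genes are not in the table, so their expression was not analysed here.

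Of 8 coding genes within 150 kb of the cluster that are no Oas gene, Ddx54 and Tpcn1 were in the table. Both lie on the side of Oas2, with other genes between them and the cluster, and Dtx1 and Rph3a, the nearest coding genes on either side, are not in the table. Ddx54, which encodes a DEAD-box RNA helicase, had 2480, 1815 and 2244 normalized counts in Mul1(+/+) and 459, 160.4 and 1064 in Mul1(-/-), a log2 difference of -2.33 (SE 0.62) that did not pass (limma adjusted p = 0.0112). Tpcn1, which encodes an endolysosomal cation channel, had 3558, 2318 and 2984 in Mul1(+/+) and 1080, 609 and 939 in Mul1(-/-). Tpcn1 fell, with a log2 difference of -1.77 (SE 0.41, limma adjusted p = 0.00848). Its call, too, was lost without Mul1(+/+) replicate 1, 2 or 3 (limma adjusted p = 0.0388, 0.0241 or 0.0327) or Mul1(-/-) replicate 2 (0.0313).

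Few genes of the interferon pathway lists were in the table. It holds only genes that the authors had selected, so absence from it does not show that a gene was unchanged. Over the 4 lists of OAS system genes, interferon ligands and receptors, interferon signalling and nucleic acid sensors, 7 of 68 genes were in the table, 3 of them higher and 4 lower. Only Oas2 passed the threshold, 1 of 7 beside the 16.7% of all genes called higher and 7.43% called lower. The median log2 difference was -1.16, against 1.12 for all genes of the table. The authors kept only genes with a log2 change from 1.0 in size, so a median falls on the side with more genes. The split of 3 higher and 4 lower decides it here, and nothing is read from this median. No interferon ligand was in the table.

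Among receptors, Il10rb, a chain shared by the IL-10 and type III interferon receptors, had 341 to 393 normalized counts in Mul1(+/+) and 614 to 1020.2 in Mul1(-/-) (log2 difference 0.99, limma adjusted p = 0.0339). Both signalling genes had lower values: Stat3, a transcription factor of cytokine receptors, differed by -1.16 (limma adjusted p = 0.0287), and Ptpn1, a phosphatase acting on JAK kinases, by -1.26 (limma adjusted p = 0.0184). None of these 3 passed.

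Among the sensors, Mavs, the mitochondrial adaptor of the RIG-I-like receptors, had 4939, 3288 and 3868 normalized counts in Mul1(+/+) and 1416, 836 and 1743 in Mul1(-/-). Its log2 difference of -1.64 (SE 0.43) missed the limit (limma adjusted p = 0.0110 with 0.01 as the limit). Traf3, a ubiquitin ligase downstream of Mavs, differed by -1.20 (limma adjusted p = 0.0239). Mb21d1, which encodes the DNA sensor cGAS, had 15.5 to 23.0 normalized counts in Mul1(+/+) and 36.0 to 82.1 in Mul1(-/-), a log2 difference of 1.57 (limma adjusted p = 0.0129). The RNA adaptor and the DNA sensor thus had values on opposite sides, and neither passed.

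Genes that interferon induces, as it does the Oas1 genes, were described from a list of 81, of which 16 were in the table. Of these 11 were higher and 5 lower, and 3 were called higher and 0 lower. All 16 had an unadjusted limma p below 0.05, as had 3416 of the 3542 genes of this preselected table. Their median log2 difference was 1.22, against 1.12 for all genes of the table. This median, too, falls on the side with more genes, and nothing is read from it. The called share, 3 of 16, stood beside the 16.7% of all genes called higher. Leaving out any 1 Mul1(+/+) library or Mul1(-/-) replicate 2 brought the calls to 0 (with 10 to 14 of the 16 at an unadjusted limma p below 0.05), leaving out Mul1(-/-) replicate 1 to 1, and leaving out Mul1(-/-) replicate 3 raised them to 11.

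The 3 called higher were Ifi27l2a, Isg15 and Phf11d. Ifi27l2a, a small interferon-induced gene, had 103, 201.03 and 102 normalized counts in Mul1(+/+) and 1305, 2822 and 705 in Mul1(-/-), a log2 difference of 3.41 (SE 0.55, limma adjusted p = 0.00504) close to that of Oas1g. Isg15, a ubiquitin-like modifier, had 316, 532 and 246 in Mul1(+/+) and 1166, 1337 and 1031 in Mul1(-/-), a log2 difference of 1.76 (SE 0.42, limma adjusted p = 0.00916). For Phf11d, a PHD finger gene, the log2 difference was 1.74 (SE 0.40, limma adjusted p = 0.00840). Isg15 and Phf11d differed by about as much as Oas1a.

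Higher values that did not pass were those of Mx1, an antiviral GTPase (2.22), Ifi205 (1.53), Slfn2, a schlafen family gene (1.52), Xaf1 (1.49) and Ddx60, a helicase gene (1.25). Their limma adjusted p ranged from 0.0111 for Mx1 to 0.0209 for Ddx60. Lower values that did not pass were those of Lgals3bp (-1.62), Znfx1, an RNA helicase (-1.43), and the immunity-related GTPases Irgm2 (-1.32) and Irgm1 (-1.07). The 5 lower genes had Mul1(+/+) means from 2357 to 4998 normalized counts, far above the 165 of Oas1a. Of the 11 higher genes, Isg15 had the highest Mul1(+/+) mean, at 365.

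**Figure D5:**
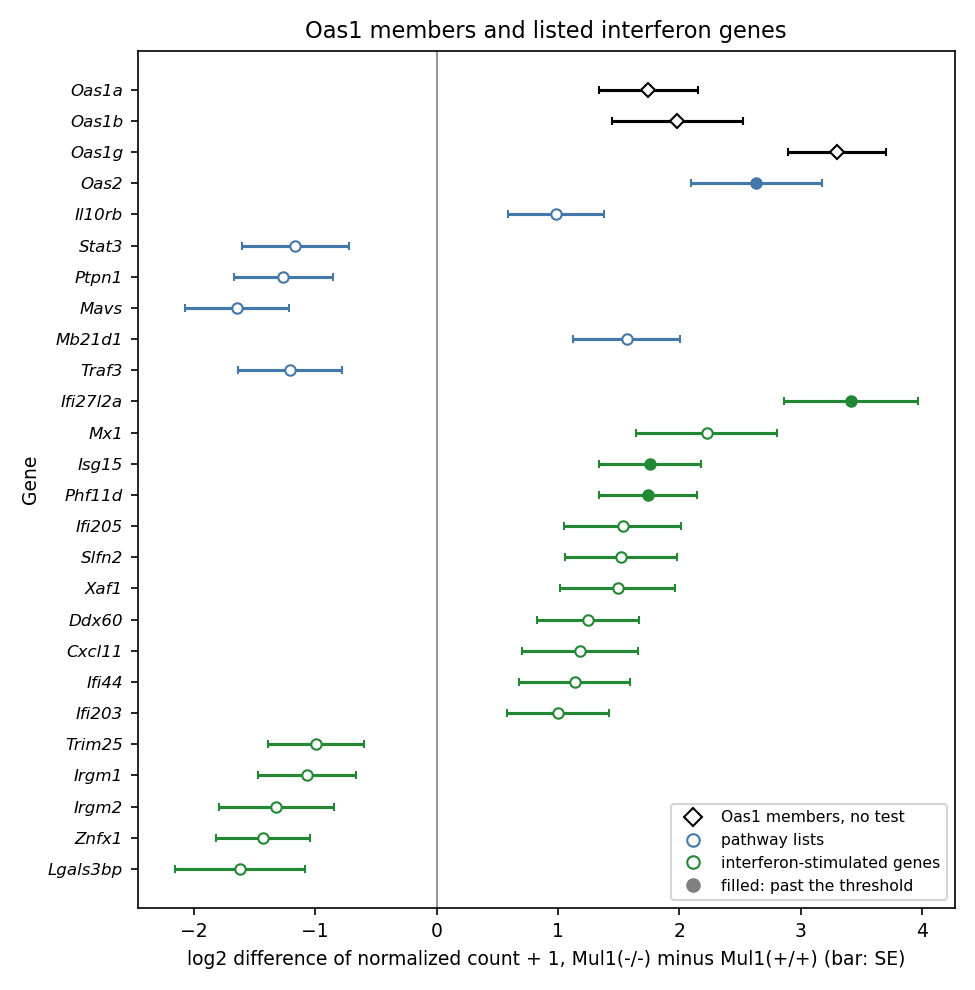
Log2 difference of the normalized count plus 1 between Mul1(-/-) and Mul1(+/+) for the Oas1 members (black diamonds, no test), the genes of the 4 pathway lists (blue) and the interferon-stimulated genes (green), with bars of 1 SE. Filled circles passed the threshold, namely Oas2, Ifi27l2a, Isg15 and Phf11d, and all 3 Oas1 members are to the right of 0 with Oas1g at 3.30.

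The motif at the Oas1a and Oas1g promoters was looked for in these genes as well. Among the 16 interferon-stimulated genes of the table, 13 had 15 promoters in RefSeq, of which 8 (53.3%) held GAAANNGAA, against 8.56% of all promoters. The genes were listed because interferon induces them, so this excess could be foreseen and says nothing about these livers. Holders of the motif lay on both sides, with Isg15 higher and Irgm1, Irgm2 and Trim25 lower in Mul1(-/-). Phf11d, which was called higher, had no match. The form followed by ACT was in 2 of the 15, those of Ddx60 and Irgm1, which had values on opposite sides. Of the 10 Oas genes 6 had a promoter, 4 of these held the motif, and Oas1a, Oas1c and Oas1g held the form followed by ACT.

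The 5 genes whose values over the 6 libraries were most like the mean of the 3 members, on the log2 scale and each gene centred, were Mustn1 (Pearson r = 0.998), Aprt (0.995), Rab7b (0.995), 1700086O06Rik (0.995) and Rps15 (0.994). They were ranked among 2834 genes with a mean of at least 50 normalized counts. All points share the same 6 libraries and the split by genotype, and 686 of the ranked genes had an r over 0.9, so that the order among them is a description. Oas2 had an r of 0.908 and stood at position 639. None of the 5 is in the interferon lists.

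Liver tissue holds several cell types that express Oas1 genes. The labels name the cell type as hepatocytes, but the paper describes liver tissue as the source of the libraries. Markers of stellate and endothelial cells also had counts in each library. Of the hepatocyte markers, 2 of 8 were in the table, Hnf4a and Tat, both at high counts in each library, with lower values in Mul1(-/-) that did not pass (limma adjusted p = 0.0135 and 0.0219) and with a summed level of 60281 to 95937 in Mul1(+/+) and 25149 to 31946 in Mul1(-/-). Of the dendritic cell markers, 3 of 7 were in the table, Itgax, Cd209a and Clec9a, all with higher values in Mul1(-/-). Cd209a and Clec9a were called higher, beside 16.7% of all genes. The call of Cd209a rests on few reads, 6, 7 and 2 in Mul1(+/+) and 8, 37 and 50 in Mul1(-/-). The summed level of the 3 markers was 49.0 to 109.6 in Mul1(+/+) and 305 to 375 in Mul1(-/-). The groups did not overlap in either list, as they did not for 49.3% (higher) and 41.0% (lower) of all genes.

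T and NK cell markers (Cd3d and Cd8a, 2 of 8 in the table, none called) summed to 13.9 to 60.2 in Mul1(+/+) and 89.1 to 202 in Mul1(-/-). Of the monocyte and neutrophil markers 1 of 7 was in the table, Csf3r, whose groups overlapped (46.6 to 64.1 and 51.8 to 197). No macrophage or Kupffer cell marker of 12 and no B cell marker of 4 was in the table. Bile duct cell markers (4 of 5 in the table, 2 called higher, beside 16.7% of all genes) summed to 1292 to 1891 in Mul1(+/+) and 4878 to 5100 in Mul1(-/-). Most of this sum was Spp1, with 1109 to 1645 in Mul1(+/+) and 3336 to 4613 in Mul1(-/-). Spp1 and Epcam were the calls. Krt19 (1151, 176 and 147 in Mul1(-/-)) and Krt7 (251, 130 and 95) had higher values that did not pass. Stellate cell markers (2 of 6, none called) summed to 4314 to 5241 in Mul1(+/+) and 8482 to 28580 in Mul1(-/-). Endothelial cell markers (2 of 6, none called) summed to 3352 to 3910 in Mul1(+/+) and 1184 to 2140 in Mul1(-/-). The part of these cell types in the Oas1 values was not tested.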

How the data were processed

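Liver mRNA libraries were made, sequenced and analysed for the authors by GENEWIZ, and the groups were compared with DESeq2 (Wald test). The aligner, counter, build and strand setting are not given in the sources used here. The deposited table gives normalized read counts of 3542 genes in 6 libraries, unpooled. Columns with log2 fold changes and with each p-value, raw and adjusted, deposited with it, hold the authors' own comparison. All its genes had been selected there (adjusted p up to 0.05, log2 change from 1.0 in size), and these columns were used for nothing else.

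Reads were recovered from the value of 1 read (0.817 to 1.46): 100% of values under 10000 came out whole (tolerance 0.1). limma 3.58.1 (R 4.3.3) was run on log2 of the normalized count plus 1, genotype only, two-sided, without a filter, with Benjamini-Hochberg adjustment over all 3542 genes. A fold on this scale understates the change of low genes. limma was also run on simulated counts with no selection of genes and no differences between libraries, so that run does not bear on the calls here. Alignments used biopython 1.88 and other steps Python 3.11.15. The genes named are the 3 members, all pathway list genes of the table, the 8 largest rises and 4 largest falls of the interferon-stimulated list, Mul1, the genes beside the cluster and the 5 most like genes. The members and lists were chosen with earlier results of these data known.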

Additional observations from a re-analysis of the deposited data

How the results depend on the processing

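Oas1a, Oas1b and Oas1g kept higher values in Mul1(-/-) under each alternative run. Their groups did not overlap, so leaving out a library or changing the pseudocount could not reverse the direction. The replicate block left each difference unchanged by design. The kept direction is therefore a description and no support. Rescaling the libraries by median ratio shifted the median of all genes by -0.66, and gave log2 differences of 1.09 for Oas1a, 2.65 for Oas1g and 1.51 for the summed members. The same rescaling turned the calls from 591 higher and 263 lower to 236 and 1030, and gave 3 calls in the interferon pathway lists, 0 of them higher. Scaling to the total without mitochondrial genes gave 709 and 171. With a pseudocount of 10 the table had 1459 calls (779 and 680), the interferon-stimulated list 6 and the pathway lists 2. With an adjusted p under 0.05 these were 3380, 15 and 6. With 1 library left out, the calls ranged from 10 to 2673 in the table, from 0 to 11 in the interferon-stimulated list and from 0 to 4 in the pathway lists. The calls of Oas2, Ifi27l2a, Isg15, Phf11d and Tpcn1 held in 6, 7, 4, 5 and 6 of 12 alternatives, with limma adjusted p from 0.000320 to 0.0422 over the 5 genes. With the replicate number as a replicate block, limma called 0 genes in the table and in both lists (3314, 15 and 7 at an unadjusted p below 0.05). Deviations of same-numbered libraries correlated at 0.0218, 0.352 and 0.0541, and those of differently numbered libraries at -0.2 to 0.132. These values do not settle whether the numbers pair the mice. Count tests on the recovered reads were not run. Depth limits Oas1b (28 to 62 reads) and Oas1g (27 to 49 reads) most, in the Mul1(+/+) libraries. The causes of these shifts were not tested.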
